A study of Mus musculus with 6 samples.

Results

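The genes described here encode the receptors by which a cell holds on to its surroundings. They were the rows of a deposited RNA-seq table whose gene symbol names an integrin alpha or beta subunit, a syndecan, a glypican or dystroglycan. The rule reads the symbol and no measured value. This gave 37 genes of the 23235 rows in the table: 18 alpha subunits, 8 beta subunits, 4 syndecans, 6 glypicans and Dag1, the dystroglycan gene.

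The study asked how gene expression differs between pluripotent mouse embryonic stem cells and the cells that retinoic acid makes of them. ESCs were of the E14Tg2a line, widely used in mouse genetics, at passages 37 to 40, and were kept pluripotent with leukemia inhibitory factor (LIF). The second group, called neuronal cells (NCs) by the study, came from monolayers of the same line at the same passages, grown without LIF and given 1 µM retinoic acid (RA) for 48 h. LIF was taken away and RA was added together, so what each of them did cannot be told apart. Each group had 3 samples of total RNA from replicate cultures. The table gives 1 pooled value per gene and group, made by the authors from the 3 samples, so no value below has a replicate error, and no difference between ESCs and NCs could be tested here.

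Integrins are heterodimers of an alpha and a beta subunit. They bind laminin, fibronectin, collagen or counter-receptors on other cells, and on the inner side they connect to actin through talin, kindlin and their partners. Syndecans are transmembrane proteoglycans, and glypicans are proteoglycans tied to the membrane by a lipid anchor. Both carry heparan sulfate chains that bind matrix proteins, fibroblast growth factors, Wnts and Hedgehog. Dystroglycan binds laminin through a sugar chain and joins it to dystrophin or utrophin. In the early embryo, laminin receptors hold epiblast and neural epithelium on their basement membrane.

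Levels are in FPKM, the sequenced fragments of a gene divided by its transcript length in kilobases and by the size of the library. FPKM is a per-length unit, so levels of different genes can be set side by side. A difference was called where the ratio of NC to ESC reached 2-fold in either direction, and only for genes whose mean of both FPKM values was at least 1. For genes below this filter, values and a few ratios are given as descriptions, with no call. The depth of the samples is unknown. From the steps between the lowest FPKM values in the table, a receptor gene past this filter was estimated to rest on between 109 and 36660 fragments. The steps were not sharp, so that these fragment numbers are rough. For NCs 1 fragment in 1 kb could be worth 0.0135 FPKM, the step used, or 0.00715 FPKM. The first matched 23.0% of the low values and the second 48.4%. The larger step was used because it gives the lower number of fragments.

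The promoters of Gpc3 and Itga3, the glypican and the integrin alpha subunit with the highest levels in NCs, and of Sdc4 and Itgb7, the syndecan and the integrin subunit with the lowest NC to ESC ratios past the filter, are shown first. They stand for both directions of difference. The sequences are RefSeq's (GRCm38.p6, which is mm10), read 5′ to 3′ on the minus strand, on which all of these genes lie. They hold the longest unbroken run, within the 250 bases before the RefSeq transcript start, that lies outside annotated exons. Capitals mark the GC box GGGCGG, a binding motif of Sp1-family factors, and the nuclear receptor core motif AGGTCA, each searched on both strands, so that CCGCCC and TGACCT count too. The Gpc3 window lies at chrX:52613975-52614224, the Itga3 window at chr11:95076802-95076964, the Sdc4 window at chr2:164443189-164443438 and the Itgb7 window at chr15:102231945-102232185. The Sdc4 window also lies within an intron of a longer Sdc4 transcript in the GENCODE annotation.
Gpc3: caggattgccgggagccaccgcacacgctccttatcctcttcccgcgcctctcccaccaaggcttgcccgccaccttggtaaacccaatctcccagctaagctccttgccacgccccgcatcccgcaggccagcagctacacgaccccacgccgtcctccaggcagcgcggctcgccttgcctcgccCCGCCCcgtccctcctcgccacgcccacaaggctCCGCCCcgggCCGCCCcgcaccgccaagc
Itga3: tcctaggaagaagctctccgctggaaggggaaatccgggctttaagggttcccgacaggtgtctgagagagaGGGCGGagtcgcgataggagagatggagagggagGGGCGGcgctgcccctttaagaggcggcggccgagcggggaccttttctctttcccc
Sdc4: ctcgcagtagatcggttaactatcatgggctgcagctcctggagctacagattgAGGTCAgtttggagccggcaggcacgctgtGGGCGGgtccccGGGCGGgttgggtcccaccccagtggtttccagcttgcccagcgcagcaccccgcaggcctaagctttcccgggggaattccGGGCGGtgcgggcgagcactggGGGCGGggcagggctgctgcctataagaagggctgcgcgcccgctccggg
Itgb7: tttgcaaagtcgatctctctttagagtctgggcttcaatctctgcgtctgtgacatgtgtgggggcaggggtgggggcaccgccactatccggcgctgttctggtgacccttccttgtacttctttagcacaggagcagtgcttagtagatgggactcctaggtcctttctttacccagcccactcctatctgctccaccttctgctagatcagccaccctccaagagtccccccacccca

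The Gpc3 stretch held 3 GC boxes, the Itga3 stretch 2 and the Sdc4 stretch 4. The Itgb7 stretch held neither motif. The core motif AGGTCA stood once among these sequences, upstream of Sdc4. Promoter windows of 300 bases were found for 26 of the 37 genes, 29 windows in all. Gpc1, Gpc6, Itga6, Itga7, Itgad, Itgae, Itgal, Itgb2, Itgb3, Itgb4 and Sdc2 had none in the table used. Motifs, CpG and GC were counted only in the 250 bases of each window before the transcript start. There a GC box was in 16 of these 29 windows, against 32.7% of all 32851 promoters, counted the same way. The core motif was in 2, those of Sdc4 and Gpc4, against 14% of all promoters. A TATA box, TATAAA, was in 1, that of Gpc5, against 12.4%. The member windows had a median of 12 CpG dinucleotides and 62.4% GC, where all promoters had medians of 6 and 52.4%. A motif match says only that the letters are there.

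CpG content went with level. Dag1, Itga3 and Itgb6 had several windows, and for each the window with the most CpG was taken. The 16 matched genes past the FPKM filter had a median of 18 CpG dinucleotides per promoter, and 11 of them held a GC box. The 10 matched genes below the filter had a median of 10.5, and 3 of them held a GC box. Across the 26 genes, Spearman's rho between CpG count and level was 0.57 in ESCs and 0.69 in NCs. These are descriptions across genes that share the same libraries, and genes are not replicates.

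Of the 37 genes, 22 passed the filter and 15 did not. In NCs 6 were at least 2-fold higher: Gpc3, Gpc6, Itga3, Itga8, Sdc2 and Dag1. These were 27.3% of the 22, where 11.1% of all 12784 rows past the filter were called higher. At least 2-fold lower were 3, Sdc4, Itgb7 and Itga6, which were 13.6% of the 22 against 9.93% of all rows. The other 13 lay within 2-fold. Of the called genes Gpc6, Itga8 and Itgb7 passed the filter through 1 condition alone, so they had to differ to be counted at all. The median log2 ratio of NC to ESC was 0.48 over the 22 genes and -0.04 over all rows past the filter. Of the 22, 16 had a ratio above 1 and 6 below 1.

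The split depended on scale. FPKM summed to 770592 in ESCs and 628679 in NCs. When NC values were multiplied by 1.23 to give both columns the same total, every log2 ratio moved up by 0.29, and the median of all rows moved from -0.04 to 0.26. Of the 22 members past the filter, 9 were then called higher and 2 lower. Of all 12784 rows, 2093 were then called higher and 865 lower. The share of called members that were higher went from 66.7% to 81.8%, and that of all called rows from 52.8% to 70.8%. Gpc1, Gpc2 and Itga9 joined the higher genes, and Itga6 left the lower ones.

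**Figure D1:**
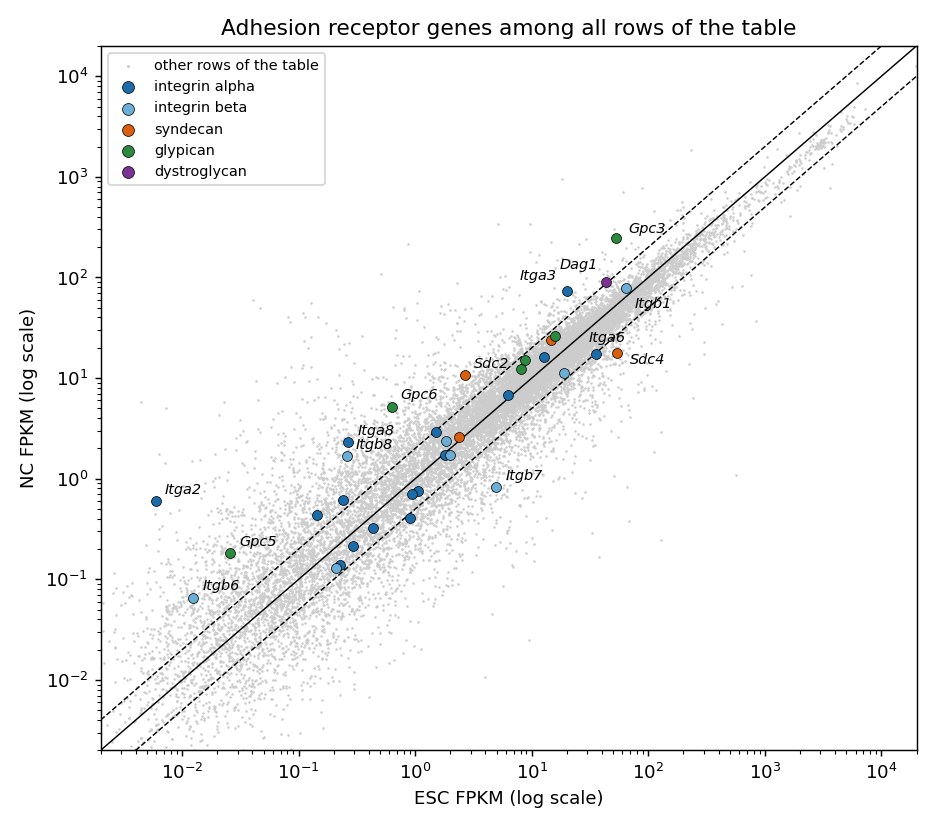
Level of every gene in ESCs (horizontal axis, FPKM, log scale) and NCs (vertical axis, FPKM, log scale), 1 pooled value per condition, with the adhesion receptor genes coloured by family and all other rows with both values above 0 in grey (rows under 0.002 FPKM are off the axes). The solid line marks equal levels and the dashed lines a 2-fold difference. Of the receptor genes with a mean FPKM of at least 1, Gpc3, Itga3, Dag1, Sdc2, Gpc6 and Itga8 lie above the upper dashed line, and Sdc4, Itgb7 and Itga6 below the lower one. Itgad and Itgax, listed at 0 in ESCs, are not drawn.

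The laminin-binding subunits Itga3 and Itga6 were the most abundant integrin alpha genes in both cell states, and their order was opposite. Itga3 (chr11:95044474-95076801, minus strand) encodes the alpha subunit of a receptor for the laminins of mature basement membranes. Its level was 20.0 FPKM in ESCs and 72.9 in NCs, 3.65-fold higher. It stood above 80.6% of all rows in ESCs and above 94.9% in NCs.

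Itga6 (chr2:71745616-71858416, plus strand) pairs with Itgb1 or Itgb4 and is a classic surface marker of many stem and epithelial cells. It was at 35.3 FPKM in ESCs and 17.2 in NCs, 2.05-fold lower. This call was at the limit. The log2 ratio was -1.03, and it missed the 2-fold limit with a pseudocount of 1 (-0.99), with ratios centred on the median of all rows (-0.998) and with the same total in both columns (-0.74).

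In ESCs Itga6 was at 1.76 times the level of Itga3. In NCs Itga3 was at 4.24 times the level of Itga6. Summed over the laminin class, the level was 56.3 FPKM in ESCs and 90.9 in NCs. Itga7, the laminin receptor of muscle, added little to these sums. It was at 1.06 FPKM in ESCs and 0.760 in NCs, and its mean of 0.912 kept it below the filter.

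All 4 genes of the RGD class, whose products bind the Arg-Gly-Asp motif of fibronectin and vitronectin, passed the filter. Itga5, the fibronectin receptor, was at 12.8 FPKM in ESCs and 16.2 in NCs. Itgav, which pairs with several beta subunits, was at 6.20 FPKM and 6.76 FPKM. Itga2b, known as the platelet fibrinogen receptor, was at 1.81 FPKM and 1.72 FPKM. These 3 lay within 1.5-fold.

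Itga8 (chr2:12106632-12301922, minus strand), the receptor for nephronectin in kidney development, was the exception in its class. Its level was 0.267 FPKM in ESCs and 2.32 in NCs, 8.68-fold higher, the largest ratio among members past the filter. It was still a low gene in NCs, above 52.3% of all rows.

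The alpha4 class differed between its members. Itga9, a receptor for tenascin and osteopontin, was at 1.51 FPKM in ESCs and 2.90 in NCs, 1.92-fold higher and just under the limit. Itga4, a receptor for VCAM1 and fibronectin, was at 0.434 FPKM and 0.323 FPKM, below the filter.

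None of the 4 collagen-binding alpha subunits passed the filter, and their sum was 0.679 FPKM in ESCs and 1.86 in NCs. Itga1 was at 0.240 FPKM and 0.609 FPKM. Itga11 was at 0.142 FPKM and 0.431 FPKM. Itga10 was at 0.291 FPKM and 0.215 FPKM.

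Itga2 stood apart in this class. It was at 0.00594 FPKM in ESCs, an estimated 3 fragments, and at 0.602 in NCs, an estimated 308 fragments. The ratio was 101, with a 95% exact binomial interval from 34.1 to 491 that covers counting error only. The interval takes the estimated fragments as counts, and the ESC value lies at the floor of 3 fragments used here. Itga2 and Itga1 lie side by side on chromosome 13, 20996 bases apart on the same strand with no coding gene between them. Their NC levels were alike, and their ESC levels were not.

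The 5 leukocyte alpha subunits were all below the filter, with a sum of 2.07 FPKM in ESCs and 1.26 in NCs. Itgal, of the lymphocyte integrin LFA-1, was at 0.935 FPKM and 0.710 FPKM. Itgae, which binds E-cadherin, was at 0.905 FPKM and 0.407 FPKM. Itgam, of the macrophage integrin Mac-1, was at 0.226 FPKM and 0.139 FPKM. Itgax was listed at 0 in both groups, and Itgad at 0 in ESCs and 0.00189 FPKM in NCs, under 1 estimated fragment. Itgam, Itgax and Itgad follow each other on chromosome 7 with gaps of 11.1 kb and 3.72 kb.

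Of 8 leukocyte and platelet markers found, 1 passed the filter, Cd34. Their summed level was 3.50 FPKM in ESCs and 3.97 in NCs. Ptprc, the pan-leukocyte marker CD45, and Pf4 of platelets were listed at 0 in both groups.

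**Figure D2:**
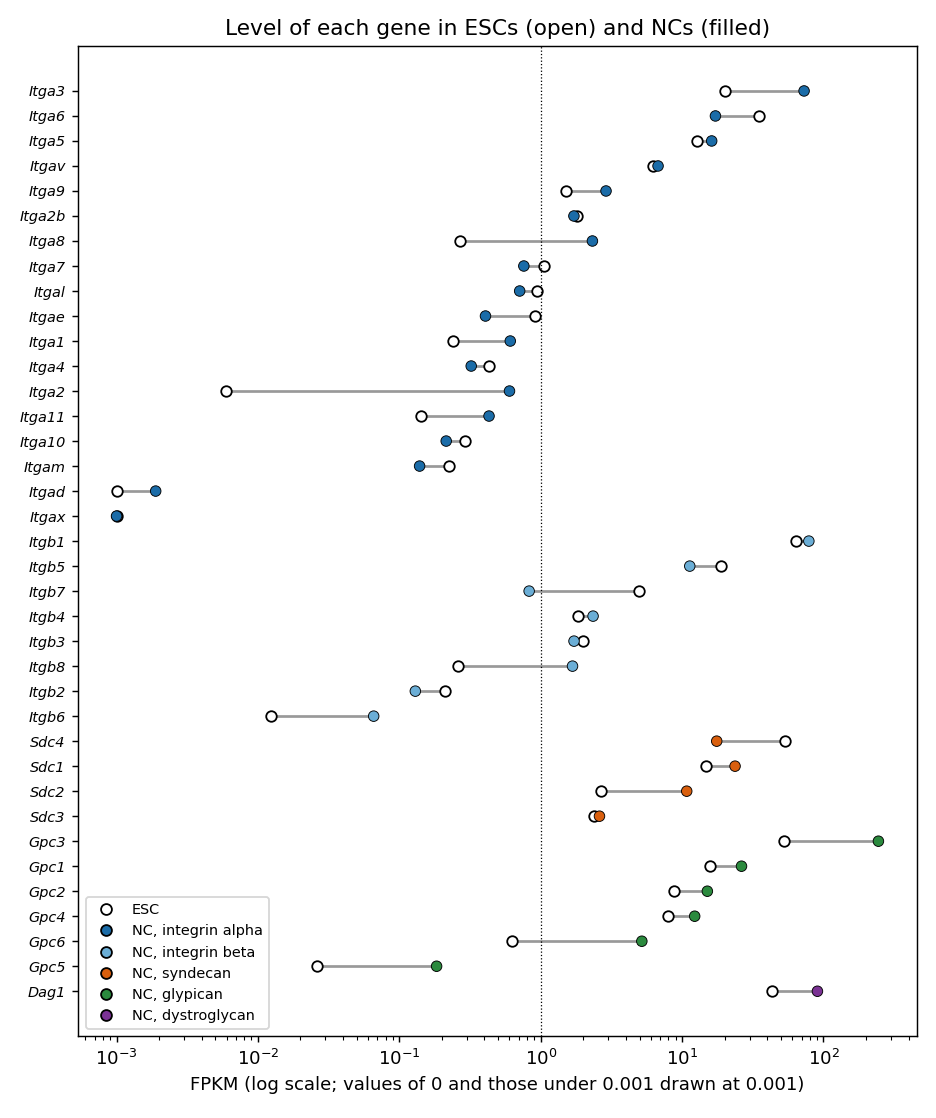
Level of each of the 37 genes (horizontal axis, FPKM, log scale) in ESCs (open points) and NCs (filled points, coloured by family), ordered within a family by mean level, with the dotted line at 1 FPKM. Each point is 1 pooled value without an error. Long grey bars with the NC point at the right include those of Itga2, Itga3, Itga8, Itgb8, Sdc2, Gpc3, Gpc5 and Gpc6, and with the NC point at the left those of Itgb7, Sdc4 and Itga6.

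Among the beta subunits, Itgb1 was the main gene in both states. Itgb1 (chr8:128685654-128733200, plus strand) partners most alpha subunits. It was at 64.1 FPKM in ESCs and 78.8 in NCs, a ratio of 1.23. It made up 69.4% of all beta subunit FPKM in ESCs and 81.3% in NCs.

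Itgb5, a vitronectin receptor subunit that pairs with Itgav, was second in both. It was at 19.0 FPKM in ESCs and 11.3 in NCs, 1.68-fold lower and within the limit. Its share of the family was 20.6% in ESCs and 11.7% in NCs.

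Itgb7 (chr15:102215995-102231944, minus strand), best known from lymphocytes that home to the gut, had the lowest ratio of all members past the filter. It was at 4.96 FPKM in ESCs and 0.828 in NCs, 5.98-fold lower. Its known alpha partners, Itga4 and Itgae, were below 1 FPKM in both groups. So the ESC level of Itgb7 had no alpha partner mRNA of like abundance.

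Itgb4, the hemidesmosome subunit, was at 1.85 FPKM and 2.35 FPKM. Itgb3, the partner of Itga2b and Itgav, was at 1.98 FPKM and 1.72 FPKM. Both lay within 2-fold.

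Itgb8, which pairs with Itgav to activate latent TGF-beta, lay just outside the filter with a mean of 0.969. It was at 0.260 FPKM in ESCs and 1.68 in NCs, a ratio of 6.47. Nearest above the filter were Itga8 with a mean of 1.29, Itga2b with 1.76 and Itgb3 with 1.85. Nearest below it after Itgb8 were Itga7 with 0.912 and Itgal with 0.823.

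Itgb2, the leukocyte beta subunit, was at 0.210 FPKM and 0.130 FPKM. Itgb6, an epithelial subunit, was at 0.0125 FPKM in ESCs and 0.0659 in NCs, an estimated 4.17 and 22.5 fragments.

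An integrin needs both of its subunits, so the genes were also read as pairs. Of 24 known alpha and beta pairs, both mRNAs reached 1 FPKM for 10 pairs in ESCs and 11 in NCs, with 9 in both groups and 12 in neither. Itga7 with Itgb1 reached it in ESCs alone. Itga8 with Itgb1 and Itgav with Itgb8 reached it in NCs alone. The 12 alpha partners of Itgb1 summed to 78.2 FPKM in ESCs against 64.1 FPKM of Itgb1, and to 121 FPKM in NCs against 78.8 FPKM. The 4 leukocyte pairs of Itgb2 reached 1 FPKM in neither group. These are mRNA levels, and no protein or dimer was measured.

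Summed over all 18 alpha subunits, the level was 82.1 FPKM in ESCs and 124 in NCs. Itga3 took 24.3% of this sum in ESCs and 58.7% in NCs. Itga6 took 42.95% in ESCs and 13.9% in NCs. The share of Itga5 was 15.6% and 13.0%, that of Itgav 7.55% and 5.44%. The beta subunits together were at 92.3 FPKM and 96.9 FPKM, so the alpha sum differed more than the beta sum.

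**Figure D3:**
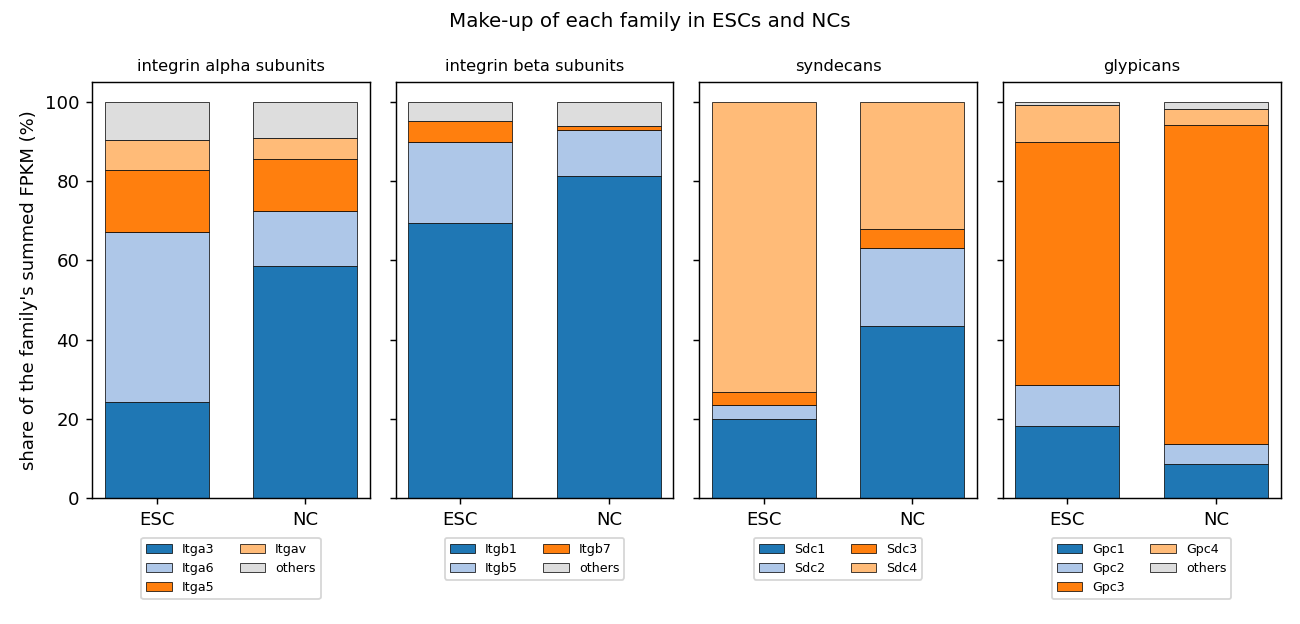
Share of each gene (vertical axis, percent) in the summed FPKM of its family, for integrin alpha subunits, integrin beta subunits, syndecans and glypicans, in ESCs (left bar) and NCs (right bar). Each bar adds to 100, and genes under 3% in both groups are drawn together as others. Itga6 and Sdc4 lead in ESCs and Itga3 and Sdc1 in NCs, and Gpc3 and Itgb1 lead their families in both.

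All 4 syndecans passed the filter, and the gene with the highest level was not the same in both groups. Sdc4 (chr2:164424247-164443887, minus strand), a focal adhesion syndecan that works with fibronectin-binding integrins, was at 53.8 FPKM in ESCs and 17.6 in NCs, 3.06-fold lower. It stood above 92.1% of all rows in ESCs and above 79.2% in NCs. Sdc2 (chr15:32920723-33034935, plus strand), a syndecan of mesenchyme and neurons, was at 2.66 FPKM in ESCs and 10.8 in NCs, 4.06-fold higher.

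Sdc1, the syndecan of epithelia, was at 14.7 FPKM and 23.7 FPKM, 1.61-fold higher and within the limit. Sdc3, the neural syndecan, was at 2.40 FPKM and 2.60 FPKM. The sum of the 4 was 73.5 FPKM in ESCs and 54.7 in NCs.

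Sdc4 held 73.1% of the syndecan sum in ESCs and 32.2% in NCs. Sdc1 held 20.0% and 43.4%, and Sdc2 3.62% and 19.7%. Sdc4 was at 3.66 times the level of Sdc1 in ESCs, and Sdc1 at 1.35 times that of Sdc4 in NCs.

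Every glypican had a ratio above 1, and the family sum was 85.7 FPKM in ESCs and 304 in NCs, 3.54-fold higher. Gpc3 (chrX:52272426-52613950, minus strand), an inhibitor of Hedgehog signaling whose loss causes overgrowth, made most of this. It was at 52.6 FPKM in ESCs and 245 in NCs, 4.65-fold higher. It had the highest NC level of all 37 genes, above 98.6% of all rows, and its share of the family was 61.4% in ESCs and 80.6% in NCs.

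Gpc6 (chr14:116925315-117976544, plus strand), a glypican of growing skeleton and brain, was at 0.627 FPKM in ESCs and 5.19 in NCs, 8.28-fold higher. Its neighbour Gpc5, 400 kb away on the same strand, was below the filter at 0.0260 FPKM and 0.184 FPKM, an estimated 4.97 and 35.8 fragments. Gpc5 was thus the lower of these neighbours in both groups, at too few fragments to compare its ratio with that of Gpc6.

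Gpc4, a glypican of neural progenitors that lies 107 kb from Gpc3 on the same strand of chromosome X, was at 8.02 FPKM and 12.3 FPKM, 1.53-fold higher. Gpc3 was at 6.56 times the level of Gpc4 in ESCs and 19.9 times in NCs. Here the neighbours had unlike ratios.

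Gpc1, the glypican of adult neurons, was at 15.7 FPKM and 26.3 FPKM, 1.68-fold higher. Gpc2, the glypican of developing neurons, was at 8.78 FPKM and 15.1 FPKM, 1.72-fold higher. Both stayed within the limit on the FPKM scale. Of the exon bases of Gpc2, 55.6% also belong to the overlapping gene model Gm43720 on the same strand, so its value is uncertain. The same holds for Itgam, with 68.7% shared with Gm49368, and for Itga10, with 33.5% shared with Gm42957. Of the exon bases of Gpc1, 18.9% overlap Ankmy1 on the opposite strand. Ankmy1 was at 0.120 FPKM and 0.134 FPKM, far below Gpc1. Of the exon bases of Itga4, 8.04% overlap Cerkl on the opposite strand. Cerkl was at 0.579 FPKM and 0.117 FPKM, in ESCs above Itga4 at 0.434 FPKM. Whether strand was used is not known, so the value of Itga4 is uncertain too.

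Dag1 (chr9:108204634-108263958, minus strand) encodes both subunits of dystroglycan. It was at 43.6 FPKM in ESCs and 90.6 in NCs, 2.08-fold higher, and stood above 90.1% and 96.1% of all rows. Its log2 ratio was 1.06. This call too was close to the limit. It held with pseudocounts of 0.1 (1.05) and 1 (1.04). Centring and equal totals raise every log2 ratio here, so neither could take this call away.

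The sugar-modifying genes that make dystroglycan able to bind laminin were mostly within 2-fold. For this and the following lists, 11.1% of all rows were called higher and 9.93% lower. Of 13 past the filter, 2 were higher, none lower and 11 within, with a median log2 ratio of 0.41. Among the higher genes was B3gnt1, which acts in building the laminin-binding chain, at 4.08 FPKM and 11.1 FPKM.

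Of the dystrophin complex, 8 of 14 genes passed, with 2 higher, 1 lower and 5 within. The median log2 ratio was -0.15. The sarcoglycan genes Sgce (11.1 FPKM and 30.3 FPKM) and Sgcb (2.03 FPKM and 4.88 FPKM) were higher.

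The genes that build heparan sulfate chains on syndecans and glypicans had the highest median log2 ratio of the related lists, 0.65 over 18 genes past the filter. At least 2-fold higher were 5, lower 2 and within the limit 11. Hs6st2, a 6-O-sulfotransferase, was at 1.47 FPKM in ESCs and 14.5 in NCs, 9.83-fold higher. Ndst1, which starts sulfation of the chain, was at 5.52 FPKM and 14.1 FPKM. Extl2, of the exostosin family, was at 2.79 FPKM and 5.94 FPKM. The lower genes were Extl1 at 2.23 FPKM and 0.701 FPKM, and Hs3st3b1, a 3-O-sulfotransferase, at 2.77 FPKM and 1.37 FPKM. Extl1 passed the filter through ESCs alone.

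None of the 6 genes past the filter that trim or shed these chains and cores was called in either direction, with a median log2 ratio of 0.07. Of the 4 cytoplasmic partners of syndecans, Sdcbp2 (2.03 FPKM and 0.757 FPKM) was lower and the other 3 were within the limit. Sdcbp2 too passed the filter through ESCs alone.

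The intracellular partners of integrins were mostly within 2-fold. Of 23 adaptor and focal adhesion genes past the filter, 20 were within the limit, with a median log2 ratio of 0.18. Among them were Tln1, the talin that activates integrins (18.9 FPKM and 29.3 FPKM), and Ptk2, the focal adhesion kinase (23.0 FPKM and 26.4 FPKM), named here after their values were seen. The parvins differed in direction. Parva was at 5.82 FPKM and 22.7 FPKM, 3.90-fold higher, and Parvb at 30.2 FPKM and 14.9 FPKM, 2.03-fold lower. Ptk2b, the kinase PYK2, was at 5.77 FPKM and 0.702 FPKM, 8.23-fold lower, and passed the filter through ESCs alone. Of 7 membrane partners of integrins, Cd9, a tetraspanin, was lower, at 196 FPKM and 67.0 FPKM, and the other 6 were within the limit.

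Among the ligands, 15 of 17 genes passed the filter, with 2 higher, 5 lower and 8 within, and a median log2 ratio of -0.28. Fn1, fibronectin, was at 155 FPKM in ESCs and 42.5 in NCs, 3.64-fold lower. Icam1, the ligand of the leukocyte integrins, was at 36.3 FPKM and 5.19 FPKM. Cdh1, E-cadherin and the ligand of Itgae, was at 124 FPKM and 38.0 FPKM.

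Npnt, nephronectin, was higher, at 1.39 FPKM and 10.4 FPKM, 7.45-fold. Its receptor subunit Itga8 was 8.68-fold higher. Tnc, the tenascin-C gene, was at 0.745 FPKM and 1.70 FPKM, passing the filter through NCs alone, and its receptor subunit Itga9 was 1.92-fold higher. Spp1, osteopontin and another ligand of Itga9, was at 152 FPKM and 48.7 FPKM, 3.13-fold lower, and is named here after its values were seen. The receptor subunit Itga5 was within 1.5-fold where its ligand Fn1 was lower.

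**Figure D4:**
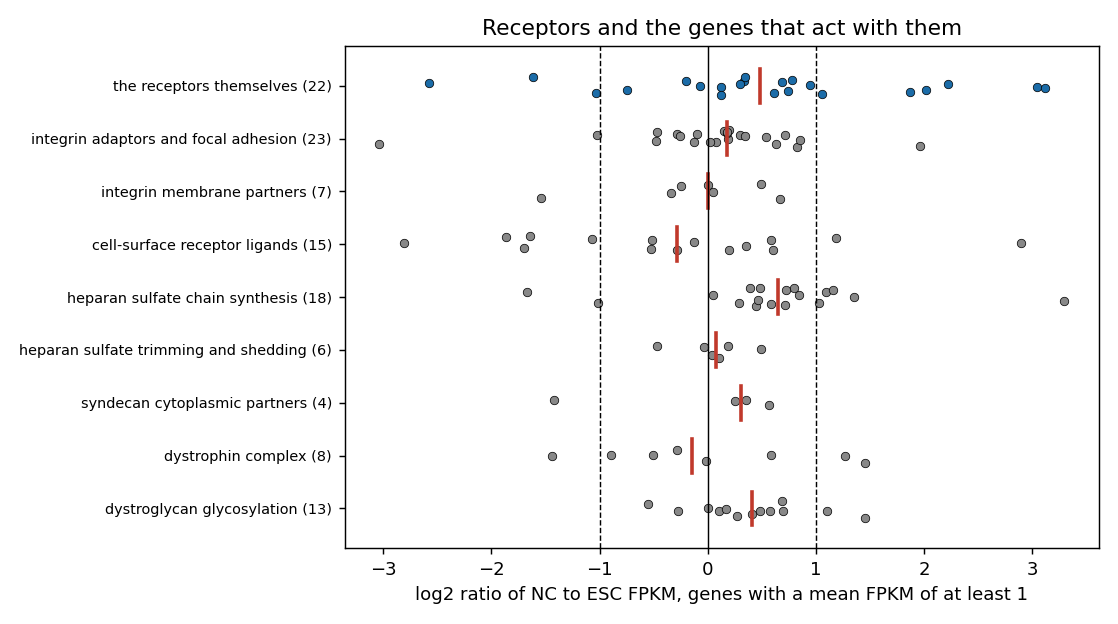
Log2 ratio of NC to ESC FPKM (horizontal axis) of every gene with a mean FPKM of at least 1, for the 22 adhesion receptors (blue) and 8 lists of genes that act with them (grey), with the number of genes in brackets. Red bars are medians, dashed lines mark a 2-fold difference, and the vertical scatter within a row has no meaning. The receptors spread from -2.58 (Itgb7) to 3.12 (Itga8), and their median is 0.48.

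The labels of the groups were checked against markers. All 8 pluripotency markers were lower in NCs, and all 7 genes that respond to RA were higher. Of 8 neural progenitor markers, 6 passed the filter, and 5 of these were higher. Some of the RA response and neural progenitor genes passed the filter through NCs alone. Of 9 neuron markers only 3 passed, 0 were higher and 2 were lower. Below the filter, Dcx was at 0.0140 FPKM and 0.334 FPKM and Th at 0.0318 FPKM and 0.250 FPKM. The others below the filter had lower values in NCs. Nefm was at 1.56 FPKM and 0.296 FPKM, and Snap25 at 0.573 FPKM and 0.204 FPKM. Rbfox3 was at 1.11 FPKM and 0.832 FPKM, and Syt1 at 0.444 FPKM and 0.381 FPKM.

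Markers of other cell types differed as well. Of 9 extraembryonic endoderm markers, 7 passed and 5 were higher, with a summed level of 21.5 FPKM in ESCs and 41.7 in NCs. Gata4 (3.30 FPKM and 3.69 FPKM) and Amn (3.07 FPKM and 2.87 FPKM) were within the limit. Sox17 and Sox7 were below 1 FPKM in ESCs and passed through NCs alone, as did Col3a1 and Pdgfra of the fibroblast list and Meox1 of the mesoderm list below, so the filter in part fixes these counts. Of 6 fibroblast markers, 5 passed, 4 were higher and 1 lower, with sums of 20.6 FPKM and 44.8 FPKM. Col1a2 made most of this difference, at 3.47 FPKM and 23.3 FPKM. The lower gene, Thy1, was at 9.64 FPKM and 1.80 FPKM. Postn, below the filter, also had a lower value in NCs. Of 7 mesoderm markers 1 passed and was higher, with sums of 3.03 FPKM and 7.91 FPKM. That gene, Meox1, was at 0.253 FPKM and 5.43 FPKM and made the difference between these sums. Below the filter, Kdr had a higher value in NCs, and T, Mesp1, Tbx6, Hand1 and Myod1 had lower ones. Of 4 endothelial markers 2 passed and both were lower, with sums of 29.0 FPKM and 5.41 FPKM. Pecam1 made most of this, at 24.7 FPKM and 2.79 FPKM, and Cdh5 (0.291 FPKM and 0.297 FPKM) and Tie1 (0.712 FPKM and 0.730 FPKM) were below the filter. No defining marker of these 4 lists was listed at 0 in either group. The endoderm and fibroblast sums, though not every gene in them, were thus higher in the group in which Gpc3, Gpc6, Itga3, Itga8, Sdc2 and Dag1 were higher. Thy1, Postn and Amn went the other way. Pecam1 and Tek were higher in the group in which Sdc4, Itga6 and Itgb7 were higher, while Cdh5 and Tie1 were alike in both groups. The part of endoderm, fibroblast or endothelial cells in the receptor differences was not tested, nor whether such cells were present. In cultures measured whole, fewer cells of a type and less RNA per cell cannot be told apart.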

How the data were processed

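Total RNA of 3 ESC and 3 NC samples was prepared with the TruSeq kit and sequenced on a HiSeq 2000. Per the labels, TopHat2 2.0.8, Bowtie2 2.1.0, Cufflinks 2.0.2, Cuffdiff (version not given in the sources used here) and the mm10 build were used. The authors deposited 1 pooled FPKM per gene and condition. The NC column is headed FPK and was read as FPKM. The gene annotation, the use of strand and the depth per sample were not given in the sources used here.

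The 6 columns of the authors' own comparison (fold change, test statistic, p- and q-value, status, significance) were not used. With 1 value per condition there is no test, SD or p-value here. Rows with a mean FPKM of at least 1 were kept, and a ratio of at least 2-fold without pseudocount was called. The members and gene lists were chosen with earlier results of these data known. All members are named, and of each related list the up to 3 called genes with the largest difference in each direction on log2(FPKM + 1). Some genes that this rule would name are not reported here. Fragments were estimated from the spacing of low FPKM values and the longest coding transcript in GENCODE M21 (GRCm38), which also gave positions. Values at or under 3 estimated fragments were given no fold. An exception is Itga2, given with its counting interval. Counting intervals and estimates cover counting error only. The calls were tested on simulated data. That checks how a call is computed, not whether it would repeat in other samples. Python 3.11.15, numpy 2.4.6, pandas 2.3.3, scipy 1.17.1 and matplotlib 3.10.9 were used.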

Additional observations from a re-analysis of the deposited data

How the results depend on the processing

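Without a filter on low values, 12 of the 35 members with a value in both groups were higher, where 2947 of 18191 rows were. With a limit of 1.5-fold, 11 of 22 members were higher, where 2471 of 12784 rows were. With a limit of 4-fold, 1 of 22 members was lower, where 426 of 12784 rows were. With a minimum mean of 5 FPKM, 14 members passed the filter. These counts differ by construction, since more or fewer genes or ratios qualify. A pseudocount of 0.1 or 1, centring on the median and equal totals left the count of higher members within 1.5 times and turned no called ratio. Centring and equal totals raise every log2 ratio here. Neither could take away a member called higher or add a member called lower. The log2 ratio of Itga6 missed the 2-fold limit with a pseudocount of 1 (-0.99), with centring (-0.998) and with equal totals (-0.74). With equal totals Gpc1 (1.04), Gpc2 (1.08) and Itga9 (1.24) passed it, and the uncalled ratios of Itga2b (-0.07 to 0.22) and Itgb3 (-0.20 to 0.09) changed sign. No paired analysis was possible because the table holds 1 pooled value per condition, and for the same reason leaving out a replicate was not run. The spread between replicates is therefore unknown for every value.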
